A study of Arabidopsis thaliana with 16 samples.

Results

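The cellulose synthase-like A (CSLA) genes of *Arabidopsis thaliana* encode the glucomannan synthases of the plant cell wall. Of the 27827 genes measured in leaves, 9 belong to this family: *CSLA01* (AT4G16590), *CSLA02* (AT5G22740), *CSLA03* (AT1G23480), *CSLA07* (AT2G35650), *CSLA09* (AT5G03760), *CSLA10* (AT1G24070), *CSLA11* (AT5G16190), *CSLA14* (AT3G56000) and *CSLA15* (AT4G13410). The family was selected on the measured change of *CSLA01*, which had the largest fall of all genes in each of the 3 comparisons with the wild type control. The other 8 genes were taken by family membership. All 9 were measured on every array, and no filter on low signals was applied. For *CSLA01*, values are therefore described and not tested.

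Glucomannan is a hemicellulose whose backbone holds mannose and glucose, both taken from GDP-sugars. CSLA proteins sit in the Golgi membrane and join these sugars into the chain. GDP-mannose is made in the cytosol, other Golgi enzymes acetylate the chain, and endo-beta-mannanases cut mannans in the wall. *CSLA09* is known for making most of the glucomannan of the inflorescence stem, with smaller parts for *CSLA02* and *CSLA03*. *CSLA02* also makes the glucomannan of seed mucilage, and *CSLA07* is required in embryos.

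Gene expression was measured on 16 arrays of leaves of the ecotype Col-0, with 4 arrays in each of 4 groups. The amiNaa10 and amiNaa15 plants carried an artificial microRNA against *NAA10* or *NAA15*, the subunits of the N-terminal acetyltransferase NatA, driven by the constitutive CaMV35S promoter, and 1 transgenic line of each was used. The drought group was wild type kept without water for 10 days, and the wild type control was neither transgenic nor dried. By the labels, soil-grown plants of all groups were 6 weeks old and had days of 8 h of light and nights of 16 h, whereas the methods give a longer growth and slightly longer days, and this difference was not settled. Values are log2 signals per gene after normalization, and a difference of 1 on this scale is a doubling.

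The targeted genes were inspected first. *NAA10* had log2 signals of 5.16, 5.28, 4.92 and 5.01 on the amiNaa10 arrays, against 6.63, 6.59, 6.88 and 6.58 on the control arrays. On the arrays labelled amiNaa15, *NAA15* had 9.68, 9.54, 7.97 and 7.80, against 9.10, 9.20, 9.0 and 9.12 on the control arrays, and *NAA10* had 5.16, 5.06, 6.90 and 6.86. Thus *NAA15* was low on replicates 3 and 4 only, while replicates 1 and 2 had low *NAA10* and went against their label. The group is called the arrays labelled amiNaa15, and its counts of called genes against the control are given with and without replicates 1 and 2. The leaf mesophyll markers were at group means between 10.8 and 13.4 in all groups, whereas all 3 flower markers had means between 1.76 and 3.09. Root hair markers had means between 1.83 and 3.10 and seed markers between 2.24 and 4.61. Secondary wall markers lay between 4.85 and 6.49, guard cell markers between 4.9 and 7.75, and the phloem marker between 8.56 and 9.11. Array signals do not separate fewer cells of a type from less RNA per cell.

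*CSLA01* was low in all 3 groups compared with the control. Its log2 signals were 3.97, 2.88, 5.85 and 4.35 on the amiNaa10 arrays, 3.38, 6.28, 8.48 and 4.96 on the arrays labelled amiNaa15, 4.24, 5.0, 5.08 and 3.40 on the drought arrays, and 8.51, 9.59, 10.80 and 9.14 on the control arrays. No array of another group reached a control array, although replicate 3 labelled amiNaa15 came close to the lowest control array. The group means were 4.26 ± 1.23, 5.78 ± 2.16, 4.43 ± 0.79 and 9.51 ± 0.97 (SD, n = 4 each) in the same order of groups. These means differed from the control by -5.25 (38.0-fold lower), -3.73 (13.3-fold lower) and -5.08 (33.8-fold lower) on the log2 scale. The lowest *CSLA01* signal, 2.88 on amiNaa10 replicate 2, was near the background of the array, so the sizes of these falls are imprecise. The next largest falls among all genes were -4.18, -3.07 and -5.05, so that the lead of *CSLA01* was narrow under drought. The arrays of amiNaa10, of drought and of the group labelled amiNaa15 overlapped one another. All 3 differences were taken against the same 4 control arrays.

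**Figure D1:**
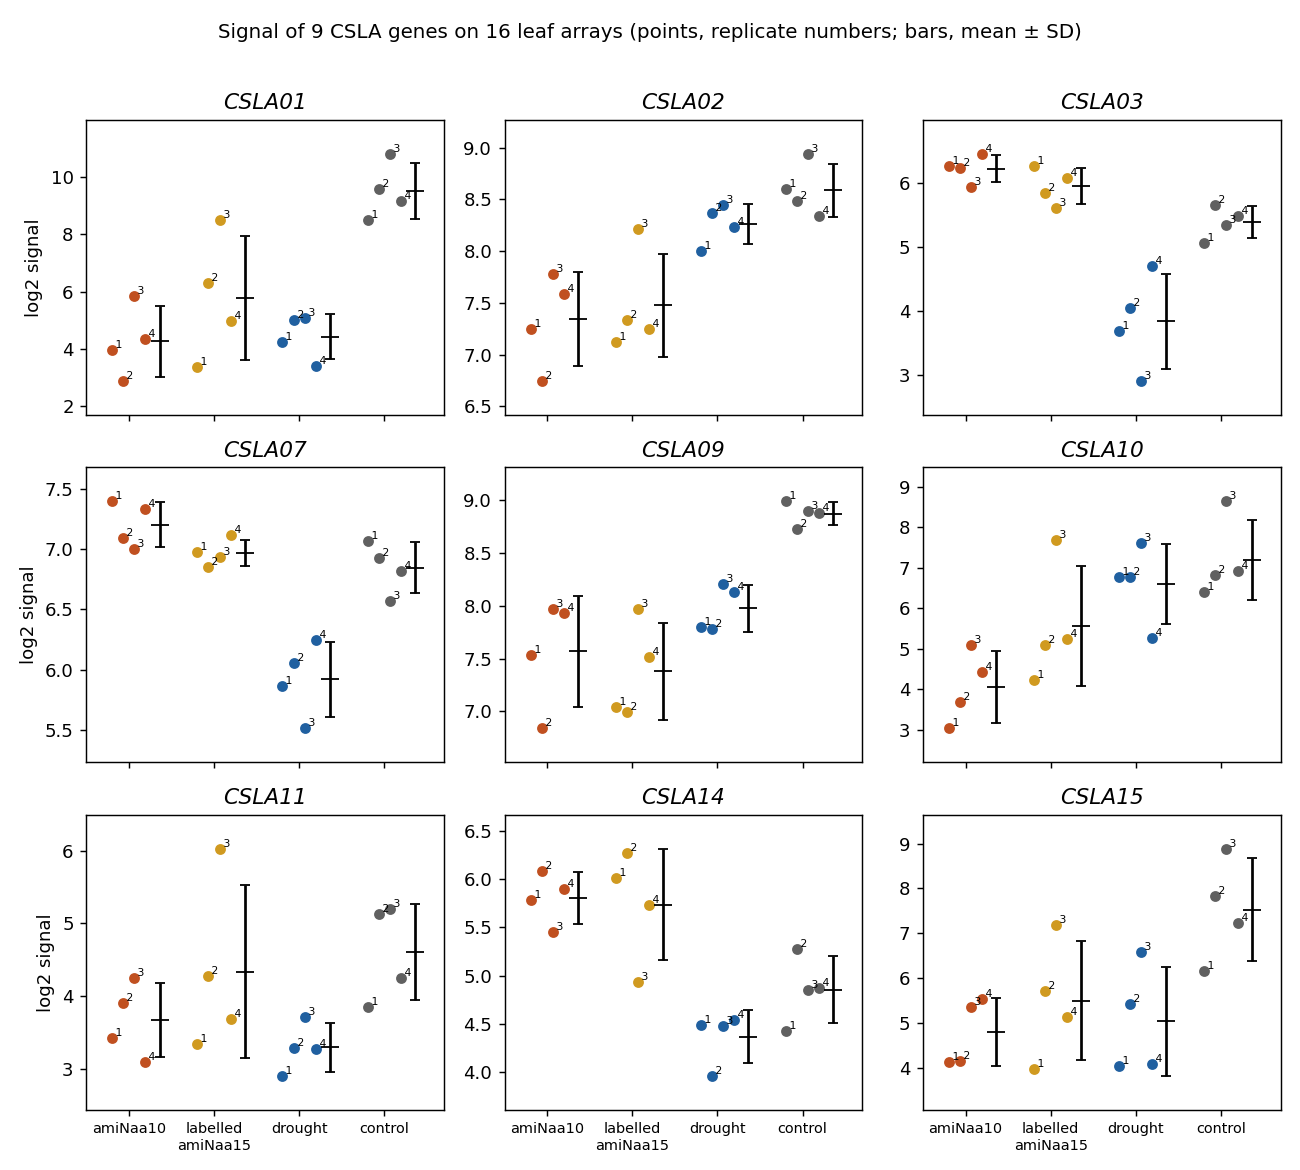
Log2 signal of the 9 CSLA genes on each of the 16 arrays. Points are single arrays with their replicate numbers, and the bar beside them is the group mean ± SD (n = 4). *CSLA01* lies between 8.51 and 10.80 on the control arrays and at 8.48 or lower on all others, and *CSLA03* and *CSLA07* are lowest under drought.

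*CSLA01* also varied widely within groups. Its pooled SD within groups was 1.39 log2 units, against a median of 0.226 over all genes, and only 0.0827% of genes had a larger one. *CSLA15* and *CSLA10* followed among the CSLA genes, with pooled SDs of 1.13 and 1.11, whereas *CSLA07* had the smallest, 0.218. Within the group labelled amiNaa15, *CSLA01* ranged between 3.38 and 8.48. Without replicates 1 and 2 of this group its mean difference from the control was -2.79. Leaving out single arrays gave differences between -5.78 and -4.79 for amiNaa10, between -4.63 and -2.93 for the arrays labelled amiNaa15, and between -5.41 and -4.65 for drought.

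In amiNaa10 leaves, *CSLA02*, *CSLA09*, *CSLA10* and *CSLA15* fell and *CSLA14* rose. A gene was called when its limma p-value, adjusted over all genes, was below 0.05 and its change exceeded 1.5-fold. Of the 8 genes tested, 4 fell and 1 rose, where 2.92% and 2.45% of all genes did. The median change of the 8 genes was -1.09, against 0.02 over all genes.

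The largest of these changes was that of *CSLA10*, with log2 signals of 3.04, 3.7, 5.09 and 4.43 on the amiNaa10 arrays, against 6.40, 6.83, 8.63 and 6.91 on the control arrays. All amiNaa10 arrays were below all control arrays, and the log2 change was -3.13 ± 0.69 (SE, adjusted p = 0.0153). *CSLA15* had 4.13, 4.16, 5.37 and 5.54 on the amiNaa10 arrays, against 6.15, 7.84, 8.88 and 7.24 on the control arrays. The ranges were again separate, with a log2 change of -2.73 ± 0.70 (SE, adjusted p = 0.0285). Both of these calls depended on single arrays, since *CSLA10* and *CSLA15* were each lost without amiNaa10 replicate 1, amiNaa10 replicate 2 or control replicate 3, and *CSLA15* also without control replicate 2.

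The stem glucomannan synthase gene *CSLA09* had 7.53, 6.84, 7.97 and 7.93 on the amiNaa10 arrays, against 8.99, 8.72, 8.90 and 8.88 on the control arrays. Every amiNaa10 array was below every control array, and the 4 control arrays lay close together. The log2 change was -1.30 ± 0.24 (SE, adjusted p = 0.00765). *CSLA02*, which acts in seed mucilage and stem, had 7.25, 6.75, 7.78 and 7.59 on the amiNaa10 arrays, against 8.60, 8.48, 8.94 and 8.34 on the control arrays. Its ranges did not overlap either, with a log2 change of -1.25 ± 0.24 (SE, adjusted p = 0.00945). *CSLA02* and *CSLA09* stayed called with any single array left out.

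*CSLA14* moved the other way, with 5.78, 6.08, 5.45 and 5.89 on the amiNaa10 arrays, against 4.43, 5.27, 4.85 and 4.87 on the control arrays. All amiNaa10 arrays were above all control arrays, with a log2 change of 0.95 ± 0.25 (SE, adjusted p = 0.0304). This call was lost without amiNaa10 replicate 1, 2 or 4 and without control replicate 1, 3 or 4, with adjusted p-values up to 0.104. *CSLA03* was separate in its ranges too, with 6.27, 6.23, 5.94 and 6.45 in amiNaa10 and 5.07, 5.67, 5.35 and 5.49 in the control, but its change of 0.83 did not pass (adjusted p = 0.0742). Non-overlapping arrays were found for 6 of the 8 genes, where 16% of all genes had them in either direction. *CSLA07* and *CSLA11* did not pass, with changes of 0.36 (adjusted p = 0.160) and -0.94 (adjusted p = 0.233). *CSLA11* had signals down to 2.91 over all arrays, near the background of the array. The lowest arrays of *CSLA10* (3.04 in amiNaa10) and *CSLA03* (2.91 under drought) were about as low, so the sizes of these falls are imprecise too.

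On the arrays labelled amiNaa15, *CSLA02* and *CSLA09* fell and *CSLA14* rose. Thus 2 of the 8 genes fell and 1 rose, where 2.58% and 2.09% of all genes did, and the median change was -0.69, against 0.01 over all genes. *CSLA09* had 7.04, 7.0, 7.96 and 7.51 on the arrays labelled amiNaa15, against 8.99, 8.72, 8.90 and 8.88 on the control arrays. No arrays overlapped, and the log2 change was -1.49 ± 0.24 (SE, adjusted p = 0.00255). *CSLA02* had 7.12, 7.33, 8.21 and 7.25, against 8.60, 8.48, 8.94 and 8.34 on the control arrays. Replicate 3 was the highest of the group and still below the control, with a log2 change of -1.11 ± 0.24 (SE, adjusted p = 0.0119). *CSLA14* had 6.01, 6.27, 4.94 and 5.73, against 4.43, 5.27, 4.85 and 4.87 on the control arrays. Here replicate 3 lay within the control range, and the log2 change was 0.88 ± 0.25 (SE, adjusted p = 0.0412). This call was lost with any of 9 single arrays left out, which were replicates 1, 2 and 4 of this group, control replicates 1, 3 and 4, amiNaa10 replicates 1 and 4 and drought replicate 1, with adjusted p-values up to 0.144.

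*CSLA10* and *CSLA15* did not pass on the arrays labelled amiNaa15. *CSLA10* had 4.23, 5.09, 7.68 and 5.23, with a log2 change of -1.64 ± 0.69 (SE, adjusted p = 0.158). *CSLA15* had 3.97, 5.71, 7.18 and 5.14, with a log2 change of -2.03 ± 0.70 (SE, adjusted p = 0.0894). In both genes replicate 3 was the highest of the 4 arrays and overlapped the control. Without that array 5 of the 8 genes were called, *CSLA10* and *CSLA15* among them. Non-overlapping arrays were found for 2 of the 8 genes, where 15% of all genes had them in either direction. *CSLA03*, *CSLA07* and *CSLA11* had changes of 0.56, 0.12 and -0.27, with adjusted p-values of 0.231, 0.679 and 0.781.

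Without replicates 1 and 2 of this group, none of the 8 genes was called by limma, and 108 of all 27827 genes were. The changes of *CSLA02*, *CSLA09* and *CSLA14* were then -0.86 (adjusted p = 0.221), -1.13 (adjusted p = 0.0826) and 0.48 (adjusted p = 0.478), in the same directions as before. With all 4 arrays, an unadjusted p below 0.05 called 5 of the 8 genes, where it called 7.82% of all genes.

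Under drought, *CSLA03*, *CSLA07*, *CSLA09* and *CSLA15* fell, and none of the 8 genes rose. All 8 had changes below 0 with a median of -0.91, against 0.03 over all genes. The 4 falls compare with 7.15% of all genes that fell and 6.27% that rose. Non-overlapping arrays were found for 4 of the 8 genes, where 24.8% of all genes had them in either direction.

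*CSLA03* had 3.7, 4.05, 2.91 and 4.71 on the drought arrays, against 5.07, 5.67, 5.35 and 5.49 on the control arrays. The ranges were separate, with a log2 change of -1.55 ± 0.28 (SE, adjusted p = 0.000843). *CSLA07* had 5.86, 6.06, 5.51 and 6.24 under drought, against 7.07, 6.93, 6.57 and 6.82 in the control. Its ranges were separate as well, with a log2 change of -0.93 ± 0.15 (SE, adjusted p = 0.000464). In both genes drought replicate 3 was the lowest array of all 16.

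*CSLA09* had 7.80, 7.78, 8.21 and 8.13 on the drought arrays, against 8.99, 8.72, 8.90 and 8.88 on the control arrays. All drought arrays were lower, with a log2 change of -0.89 ± 0.24 (SE, adjusted p = 0.0120). *CSLA09* was thus called lower in each of the 3 comparisons, which share their control arrays. *CSLA15* had 4.05, 5.43, 6.59 and 4.09 under drought, against 6.15, 7.84, 8.88 and 7.24 in the control. Drought replicate 3 overlapped the lowest control array, and the log2 change of -2.49 ± 0.70 (SE, adjusted p = 0.0167) was not called without drought replicate 1, drought replicate 4 or control replicate 3.

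*CSLA11* narrowly missed the threshold under drought, with 2.91, 3.29, 3.72 and 3.28 against 3.86, 5.13, 5.19 and 4.25 in the control and a log2 change of -1.31 (adjusted p = 0.0509). *CSLA02*, *CSLA10* and *CSLA14* had changes of -0.33, -0.59 and -0.49, with adjusted p-values of 0.370, 0.597 and 0.177. For *CSLA10* the drought arrays had 6.77, 6.77, 7.60 and 5.26, mostly within the control range. The summed log2 signal of the 4 mesophyll markers was also lower under drought, between 45.5 and 48.3 on the drought arrays and between 49.4 and 50.1 on the control arrays, and none of the 4 had a mean under 3. *CA1*, a chloroplast carbonic anhydrase among these markers, fell by 1.67 on the log2 scale (adjusted p = 0.000234). Only *CA1* and *LHCB1.3* of these markers were called in any comparison with the control, and *RBCS1A* and *RCA* in none. The highest marker mean was 13.25 under drought and 13.39 in the control, and the lowest was 10.75 and 11.535. The sum and these extremes do not tell whether each of the 4 markers was lower. With limma's treat, which tests for a change beyond 1.5-fold, 0 of the 8 genes were called in any of the 3 comparisons with the control. The part of mesophyll RNA in the drought changes of the CSLA genes was not tested.

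**Figure D2:**
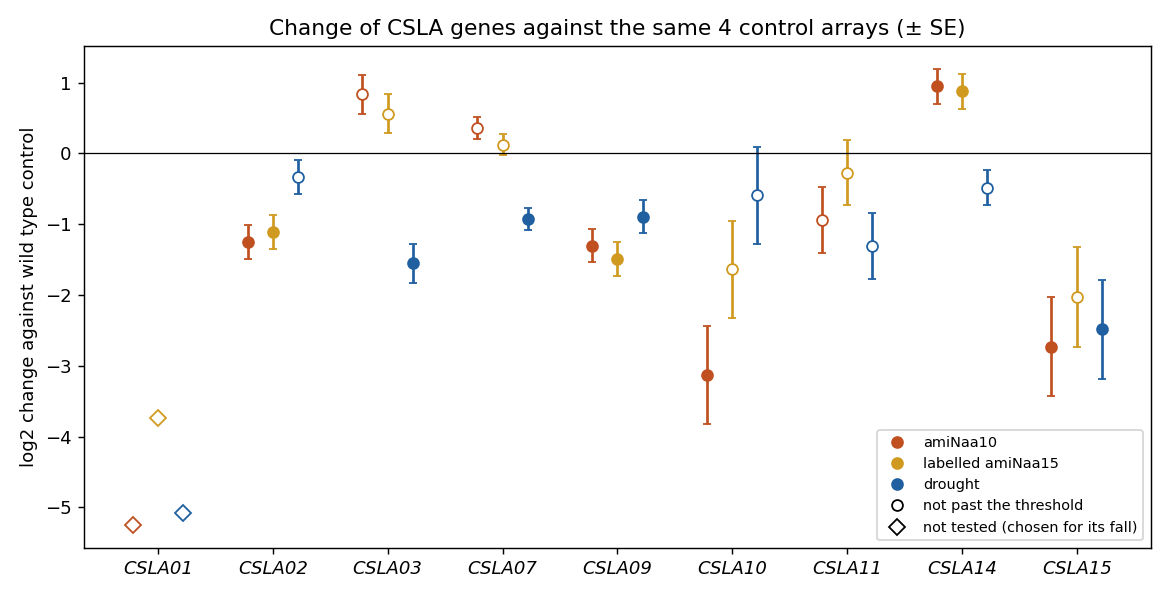
Log2 change of each CSLA gene against the wild type control in amiNaa10, in the arrays labelled amiNaa15 and under drought. Circles carry the SE of the fit, filled where the gene was called, and diamonds mark *CSLA01*, which was not tested. With all arrays of each group included, *CSLA09* is filled in all 3 comparisons, and *CSLA03* and *CSLA07* only under drought.

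The groups other than the control were compared directly, which asks whether the family differed between the transgenic leaves and drought. *CSLA03*, *CSLA07* and *CSLA14* were higher, and *CSLA02* and *CSLA10* lower, in amiNaa10 than under drought. Of the 8 genes, 3 were higher and 2 lower, where 9.11% and 8.17% of all genes were. The log2 differences were 2.38 ± 0.28 for *CSLA03* (SE, adjusted p = 1.9e-05), 1.28 ± 0.15 for *CSLA07* (SE, adjusted p = 2.2e-05) and 1.43 ± 0.25 for *CSLA14* (SE, adjusted p = 0.000480). No array of amiNaa10 overlapped a drought array in these 3 genes. For *CSLA10* and *CSLA02* the differences were -2.54 ± 0.69 (SE, adjusted p = 0.0110) and -0.92 ± 0.24 (SE, adjusted p = 0.00891), again without overlap.

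The arrays labelled amiNaa15 were also higher than drought in *CSLA03*, *CSLA07* and *CSLA14*, by 2.11, 1.05 and 1.37, and lower in *CSLA02*, by a log2 difference of -0.79 (adjusted p = 0.0276). This makes 3 of 8 genes higher and 1 lower, where 7.14% and 6.57% of all genes were. The 3 rises stayed called without replicates 1 and 2 of the group, whereas the lower level of *CSLA02* did not, and was also lost without replicate 1, 2 or 4 of the group or drought replicate 2 or 3 alone. For *CSLA09*, *CSLA11* and *CSLA15* neither comparison with drought passed the threshold. Between amiNaa10 and the arrays labelled amiNaa15, limma called 0 of the 8 genes and 0 of all genes. At an unadjusted p below 0.05 it called *CSLA10* and 1.29% of all genes. Replicates 1 and 2 labelled amiNaa15 had low *NAA10* like the amiNaa10 arrays, so this comparison could not separate low *NAA10* from low *NAA15*. Without those replicates limma again called none of the 8 genes. The lowest adjusted p was then 0.480, for *CSLA10* with a log2 difference of -2.39. *CSLA01* had mean differences of -0.17 between amiNaa10 and drought, 1.35 between the arrays labelled amiNaa15 and drought, and -1.51 between amiNaa10 and the arrays labelled amiNaa15, with overlapping arrays in each.

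Single arrays that were high in *CSLA01* for their group were also high in other CSLA genes. After each group mean was subtracted, *CSLA01* correlated over the 16 arrays with *CSLA10* (r = 0.88), *CSLA15* (r = 0.86), *CSLA02* (r = 0.85), *CSLA11* (r = 0.81) and *CSLA09* (r = 0.59). It correlated negatively with *CSLA14* (r = -0.53), *CSLA03* (r = -0.47) and *CSLA07* (r = -0.43). Over all genes, 0.661% had an r of 0.75 or more with *CSLA01* on this scale and 0.341% an r of -0.75 or less.

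Replicate 3 was the highest array of its group for *CSLA01* in all 4 groups, though the labels do not tie the number to a shared batch. The deviation of *CSLA01* from its group mean was 1.59 on replicate 3 of amiNaa10, 2.70 on that labelled amiNaa15, 0.65 on that of drought and 1.29 on that of the control. The main axis of the deviations of all genes held 20.6% of the variation within groups, and *CSLA01* had an r of 0.11 with it, whereas *CSLA07* had an r of 0.70. Whether CSLA genes share probes is not given in the sources used here.

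The CSLA genes were also grouped by the direction of their means, after their values were seen and with no test. *CSLA01*, *CSLA02*, *CSLA09*, *CSLA10*, *CSLA11* and *CSLA15* had means below the control in amiNaa10 leaves and on those labelled amiNaa15, while *CSLA03*, *CSLA07* and *CSLA14* had means above it. On the arrays labelled amiNaa15, *CSLA11* (-0.27) and *CSLA07* (0.12) differed little from the control, and *CSLA11* was 0.25 above it without replicates 1 and 2. Within the first set all 15 pairs of genes had positive correlations of their deviations, with a median r of 0.75. The share of positive pairs over all genes was not computed. Among *CSLA03*, *CSLA07* and *CSLA14* r of the deviations lay between -0.096 and 0.71, with 2 of 3 pairs positive. Between the sets 1 of 18 pairs was positive, with a median r of -0.45. Under drought, however, the means of both sets lay below the control.

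**Figure D3:**
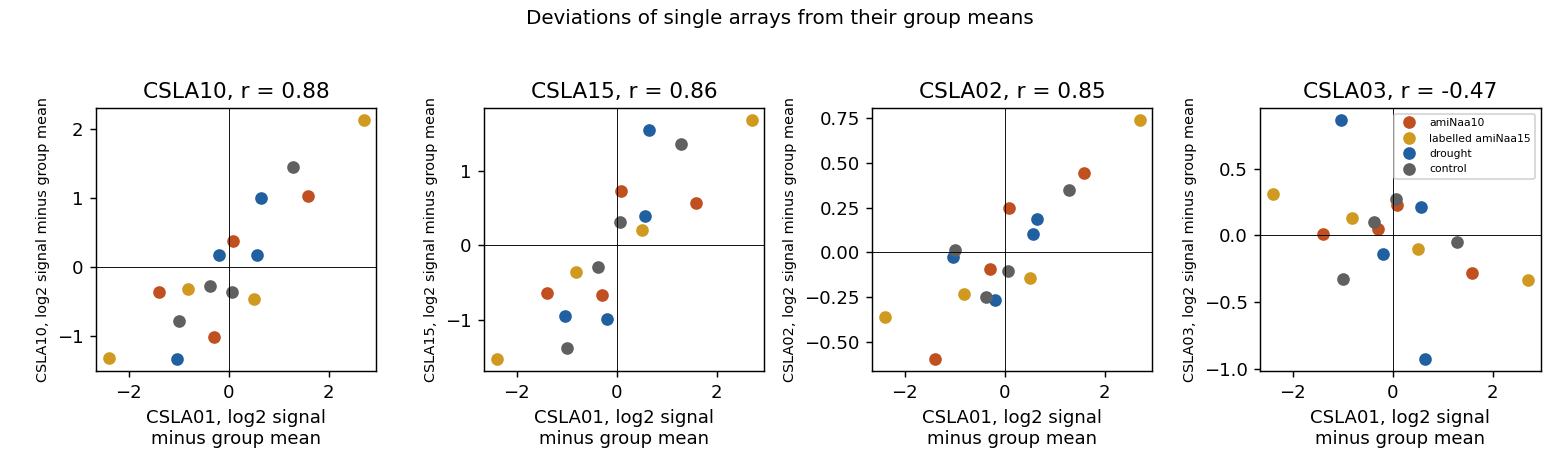
Deviation of each array from its group mean (log2 signal) for *CSLA01* on the horizontal axis and for *CSLA10*, *CSLA15*, *CSLA02* or *CSLA03* on the vertical axis. Points are the 16 arrays coloured by group, and r is Pearson's correlation without a test, 0.88 for *CSLA10* and -0.47 for *CSLA03*.

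Genes that supply, help or modify the product of the CSLA proteins were listed next, 32 in all. In amiNaa10, 8 of them fell and 0 rose, where 2.92% and 2.45% of all genes did. On the arrays labelled amiNaa15, 5 fell and 0 rose, where 2.58% and 2.09% of all genes did, and without replicates 1 and 2 of that group 0 were called. Under drought, 6 fell and 2 rose, where 7.15% and 6.27% of all genes did, so that the share that rose was near that of all genes. The median changes were -0.13, -0.14 and -0.24, against 0.02, 0.01 and 0.03 over all genes.

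Among the genes that act with CSLA proteins, *MSR1*, a protein needed for normal mannan synthesis, fell in all 3 comparisons. It had 8.07, 7.66, 8.49 and 7.96 on the amiNaa10 arrays, 7.76, 7.70, 8.56 and 8.02 on the arrays labelled amiNaa15, 7.92, 8.22, 8.27 and 8.17 under drought, and 9.09, 8.82, 9.24 and 8.99 in the control. All control arrays were above all others. The changes were -0.99 (adjusted p = 0.00896), -1.03 (adjusted p = 0.00540) and -0.89 (adjusted p = 0.00295). Without replicates 1 and 2 labelled amiNaa15, that group had a change of -0.75 (adjusted p = 0.143). Its relative *MSR2*, named after its values were seen, fell in amiNaa10 leaves (-0.66) and on the arrays labelled amiNaa15 (-0.74), and under drought its change of -0.43 was under 1.5-fold.

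Of the genes for acetylation of the chain, *TBL26*, which belongs to the mannan O-acetyltransferases, changed most. It had 7.25, 6.65, 8.76 and 7.95 on the amiNaa10 arrays, 7.29, 8.12, 9.50 and 7.59 on the arrays labelled amiNaa15, 9.58, 9.66, 10.17 and 8.85 under drought, and 10.29, 10.68, 10.97 and 10.40 in the control. The 4 control arrays were the highest of all, and replicate 3 was again the highest of each group. The changes were -2.93 ± 0.46 (SE, adjusted p = 0.00436), -2.46 ± 0.46 (SE, adjusted p = 0.00574) and -1.02 ± 0.46 (SE, adjusted p = 0.124), the last not past the threshold. Without replicates 1 and 2 labelled amiNaa15, the change of *TBL26* in that group was -2.04 (adjusted p = 0.127). *TBL24*, of the same group of enzymes, fell under drought by 1.10 on the log2 scale (adjusted p = 0.000156). Chosen after their values were seen, *RWA2*, which acts in wall acetylation, fell in amiNaa10 leaves (-0.85) and on the arrays labelled amiNaa15 (-0.81), and *TBL25* and *RWA4* each fell under drought by 0.69 on the log2 scale.

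In the supply of GDP-mannose, *CYT1*, the GDP-mannose pyrophosphorylase, had 9.96, 9.80, 10.36 and 9.97 in amiNaa10, against 10.87, 10.96, 11.42 and 10.90 in the control. No arrays overlapped, and *CYT1* fell by 1.02 on the log2 scale (adjusted p = 0.0117), whereas its changes on the arrays labelled amiNaa15 (-0.65) and under drought (-0.21) did not pass. *PMM*, the phosphomannomutase before it in the pathway, had 7.28, 7.37, 7.82 and 7.27 under drought, against 8.46, 8.43, 8.5 and 8.72 in the control. All drought arrays were lower, with a change of -1.09 (adjusted p = 3.64e-05), and its changes of 0.11 in amiNaa10 leaves and -0.06 on the arrays labelled amiNaa15 did not pass. The mannose-6-phosphate isomerase gene *PMI2*, named after its values were seen, fell by 0.79 in amiNaa10 leaves and by 0.76 on the arrays labelled amiNaa15 (log2). None of the 4 GDP-sugar transporter genes was called in any of the 3 comparisons.

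Of the endo-beta-mannanase genes, *MAN7* and *MAN1* rose under drought, by 1.01 (adjusted p = 0.000611) and 0.91 (adjusted p = 0.00554) on the log2 scale. *MAN7* had 8.25, 8.35, 8.72 and 8.04 on the drought arrays, against 7.42, 7.24, 7.29 and 7.38 on the control arrays. *MAN1* had 3.97, 4.82, 4.84 and 3.99 on the drought arrays, against 3.45, 3.47, 3.83 and 3.22 on the control arrays. The arrays did not overlap in either gene, though *MAN1* was weak. *MAN5* fell in amiNaa10 (-0.76) and *MAN2* under drought (-0.72), both named after their values were seen.

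**Figure D4:**
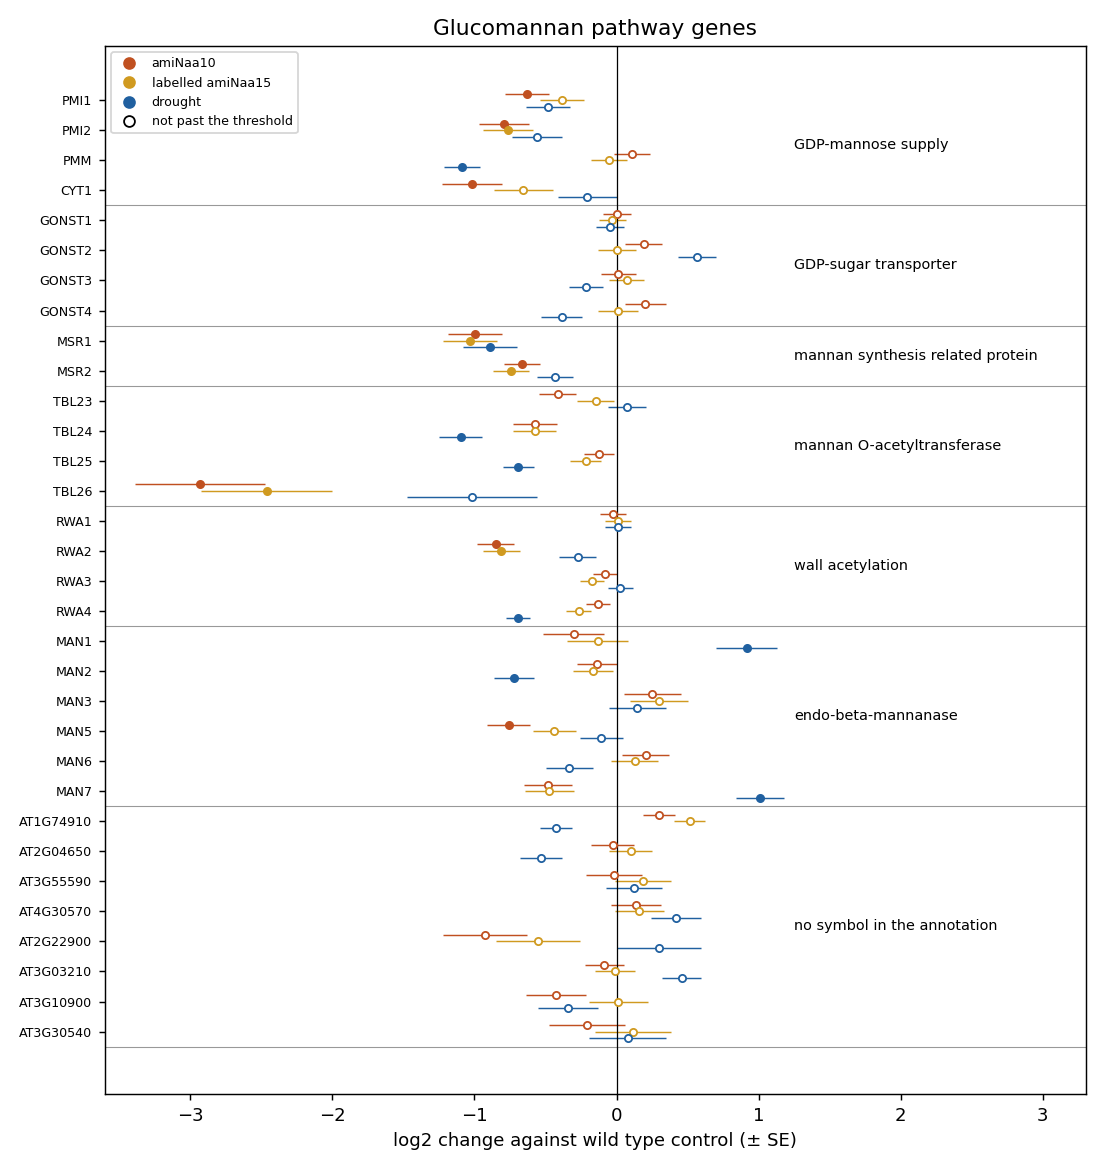
Log2 change ± SE of 32 glucomannan pathway genes against the wild type control, ordered by role, with the 8 loci that have no symbol in the annotation last, in amiNaa10, on the arrays labelled amiNaa15 and under drought. Filled points were called. *TBL26* has the largest falls, -2.93 and -2.46, and *MAN7* and *MAN1* are the only filled points above 0.

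Other members of the cellulose synthase superfamily, to which the CSLA genes belong, were compared as relatives that make other wall polymers. Of these 31 genes, 4 fell and 0 rose in amiNaa10, where 2.92% and 2.45% of all genes did. On the arrays labelled amiNaa15, 6 fell and 0 rose, where 2.58% and 2.09% of all genes did, and 0 were called without replicates 1 and 2 of that group. Under drought, 5 fell and 2 rose, where 7.15% and 6.27% of all genes did, and here too the share that rose was near that of all genes. The falls of single genes given for the arrays labelled amiNaa15 are those of all 4 arrays. *CSLC05*, of the family that makes the glucan backbone of xyloglucan, fell in each, by 1.14, 1.20 and 0.75 on the log2 scale (adjusted p = 0.00593, 0.00271 and 0.0103). *CSLC04*, of the same family, fell only under drought among the 3 comparisons, with a change of -0.92 (adjusted p = 0.000491).

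*CSLG1* fell in each comparison too, with changes of -1.92, -1.79 and -1.04 (adjusted p = 0.00283, 0.00192 and 0.0111). *CSLG3* fell in amiNaa10 leaves and on those labelled amiNaa15, with changes of -1.02 and -1.0, close to the threshold in both (adjusted p = 0.0443 and 0.0497). *CSLG2* rose under drought, with 8.36, 8.18, 9.43 and 6.58 on the drought arrays, against 6.11, 5.06, 5.97 and 6.49 on the control arrays. Drought replicate 4 was only just above the highest control array, and the change was 2.23 ± 0.53 (SE, adjusted p = 0.00631). The primary wall cellulose synthase gene *CESA5* fell in amiNaa10 leaves (-0.74) and on the arrays labelled amiNaa15 (-0.97), and *CSLD5* under drought (-1.54, adjusted p = 0.000210). *CSLD2*, of the same family as *CSLD5* and named after its values were seen, was called higher under drought, with a change of 0.76. Without replicates 1 and 2 labelled amiNaa15, that group had changes of -0.90 for *CSLC05*, -1.40 for *CSLG1*, -0.58 for *CSLG3* and -0.85 for *CESA5* (adjusted p = 0.0831, 0.0672, 0.455 and 0.149).

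The genes whose signals ran most like *CSLA01* over the 16 arrays were sought among 21857 genes with a mean log2 signal of at least 3. The highest Pearson correlations were those of AT2G43550 (r = 0.94), AT5G44720 (r = 0.93), AT3G52870 (r = 0.93), *CSLA15* (r = 0.93, in place 4) and AT1G12380 (r = 0.93). *CSLA15* was the only CSLA gene among the 100 most alike. The lowest were AT4G27340 (r = -0.93), AT2G29210 (r = -0.92) and *TIC40* (r = -0.92), which encodes a part of the chloroplast protein import machinery. The arrays share their groups, so that the group differences enter each correlation.

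AT2G43550 had means of 8.24 ± 0.75 in amiNaa10, 8.97 ± 0.65 on the arrays labelled amiNaa15, 8.59 ± 0.40 under drought and 10.00 ± 0.53 in the control (SD, n = 4 each). The means stood in the same order as those of *CSLA01*. *BAM5*, a beta-amylase gene chosen after its values were seen as the next with a symbol (r = 0.93), had means of 5.80 ± 1.32, 7.47 ± 1.43, 6.28 ± 1.12 and 9.11 ± 0.97 in the same order. After the group means were subtracted, its r with *CSLA01* was 0.87.

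The genes beside *CSLA01* on the chromosome did not share its changes. In the order of the RefSeq annotation, *PRMT7* and AT4G16580 precede it and *PGSIP8* and AT4G16610 follow it. None of these 4 was called in any of the 3 comparisons. Their changes lay between -0.57 for *PRMT7* under drought (adjusted p = 0.00810, under 1.5-fold) and 0.37 for AT4G16580 under drought (adjusted p = 0.0346, under 1.5-fold). AT4G16610 had signals of 2.70 or lower on all arrays, near background.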

How the data were processed

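Leaf RNA was measured with Affymetrix AraGene-1_0-st arrays. The values deposited by the authors are log2 signals, summarised per TAIR locus with RMA, quantile normalization and a custom probe annotation. The genome build is not given in the sources used here, and no coordinates are given. Every array holds the same set of values after sorting, and correlations within groups lay between 0.971 and 0.991. All columns were matched to a sample.

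Each gene was fitted in limma (version 3.58.1, R 4.3.3) with a mean for each of the 4 groups, leaving 12 residual degrees of freedom, and variances were moderated. P-values were adjusted by Benjamini-Hochberg over 27827 genes within a comparison. A call needed an adjusted p-value below 0.05 together with a change of more than 1.5-fold. The fit was tested on simulated data with independent noise for each gene. That simulation held no variation shared between genes and no arrays at odds with their label. Summaries and plots were made in Python 3.11.15 (pandas 2.3.3; matplotlib 3.10.9). The labels call the samples biological replicates but name no separate plants, so p-values measure the spread between these samples.

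The genes and lists were chosen with earlier results of these data known. Named genes are the 9 CSLA genes, *NAA10* and *NAA15*, the 15 list members with the largest called change, the 5 genes most and 3 least like *CSLA01*, and 2 neighbours on each side. Symbols come from the RefSeq table of TAIR10.1, those of *NAA10* and *NAA15* from the methods. Levels of different genes were not compared. Alternatives were an unadjusted p, other minimum changes, limma's treat, no moderation, only the groups compared, a replicate block, array weights, other normalizations, no weak genes and arrays left out.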

Additional observations from a re-analysis of the deposited data

Results flagged for a closer look

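In 96 groups of 4 arrays (24 genes in each of 4 groups), 3 had a single array far from the other 3, by a rule that chance meets in about 1 of 20 groups. *CSLA14* was 3.97 on drought replicate 2, against 4.48 to 4.54 on the other drought arrays. *TBL24* was 5.95 on amiNaa10 replicate 2, against 6.58 to 6.65 on the other amiNaa10 arrays. *CYT1* was 11.42 on control replicate 3, against 10.87 to 10.96 on the other control arrays.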

How the results depend on the processing

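Of 1392 values (48 changes of the 8 tested CSLA genes under 29 alternatives), 1283 kept direction and side of the threshold, 63 lost the call, 33 gained it and 13 reversed. Counts of called CSLA genes in amiNaa10, on the arrays labelled amiNaa15 and under drought were 5, 3 and 4. With limma's treat they were 0 in each; for amiNaa10 against drought treat gave 3, and for the arrays labelled amiNaa15 against drought 1. With a 2-fold minimum drought had 2, and without moderation amiNaa10 had 3. On the arrays labelled amiNaa15, an unadjusted p gave 5, and omitting replicates 1 and 2 gave 0. An unadjusted p gave 1 between amiNaa10 and the arrays labelled amiNaa15. Of the pathway genes, a 2-fold minimum called 2, 2 and 3, treat 0, 0 and 1, and no minimum 15 under drought. Without replicates 1 and 2 labelled amiNaa15, that group had 0 pathway genes and, in a setting added after seeing the data, 0 superfamily genes, against 6 with all arrays. By correlation of deviations, 3 of the 5 genes most like *CSLA01* stayed among the 100 most alike.

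The replicate block gave 6, 5 and 5 CSLA genes, with *CSLA10* and *CSLA15* added on the arrays labelled amiNaa15. Of 24 pairs of same-numbered arrays, 6 had deviations correlated above 0.1 (range -0.20 to 0.32), and no label ties a number to a batch, so the numbers were not taken as pairs. Of these 6, 4 were pairs of replicate 3, the highest array of each group for *CSLA01*. Single arrays left out gave 2 to 6, 2 to 5 and 3 to 5 CSLA genes, 7 to 10, 4 to 9 and 8 to 10 pathway genes, and 0, 5 and 3 to 6 CSLA genes among the groups other than the control. Without amiNaa10 replicate 1, amiNaa10 replicate 2 or control replicate 3, 2 remained in amiNaa10, *CSLA02* and *CSLA09*. Without replicate 3 labelled amiNaa15, that group had 5 CSLA and 9 pathway genes. Omitting both arrays numbered 3 of the control and the group labelled amiNaa15, chosen after seeing the data, gave 4, 3 and 5.

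Reversed values, none of them called, came mostly from single arrays left out. Between amiNaa10 and the arrays labelled amiNaa15, *CSLA14* was then between -0.20 and 0.25 (lowest without replicate 3 labelled amiNaa15) and *CSLA02* between -0.28 and 0.11 (highest without the same array). In that comparison *CSLA14* was -0.081 with array weights, *CSLA09* was -0.17 without replicates 1 and 2 labelled amiNaa15, and without both arrays numbered 3 *CSLA14* was -0.20 and *CSLA02* 0.11. Against the control, *CSLA11* on the arrays labelled amiNaa15 was between -0.83 and 0.060 with single arrays left out, and 0.25 without replicates 1 and 2. Against drought, *CSLA15* was between -0.58 and 0.27 in amiNaa10 and between -0.10 and 0.98 on the arrays labelled amiNaa15, and -0.10 there without both arrays numbered 3. The cause was not tested. The number of arrays and weak signals, as for *CSLA11*, limit the precision.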
